A study of Mus musculus with 16 samples.

Results

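The interferon response genes described here are Gbp2, Ifit1, Ifit2, Ifit3, Irf1, Irf7 and Isg15, taken as the probe sets whose only annotated gene symbol is one of these 7. Of the 7 genes, 6 had such a probe set, 7 probe sets in all of 22690 on the array, because Gbp2 had 2. The only probe set that names Isg15 also names a second gene, so Isg15 has no value here. The 6 genes were among 9058 that passed the filter on dim signals and were tested. RNA of whole skin was measured on 16 Affymetrix Mouse Expression Set 430 A arrays. The transgenic mice, K14deltaNB-cateninER of line D2, carried a stabilised β-catenin, without its N-terminal part, joined to the ligand-binding domain of an oestrogen receptor. Its promoter, that of keratin 14, is active in basal keratinocytes of the epidermis and in the outer root sheath of the hair follicle and the sebaceous gland, while the RNA came from all cells of the skin. Transgenic skin was measured after 0 days (2 arrays), 1 day (3 arrays) and 7 days (3 arrays) of 4-hydroxytamoxifen, the ligand that switches the fusion protein on. Wild-type C57BL/6 skin was measured after 0 days (3 arrays), 1 day (3 arrays) and 7 days (2 arrays) of the same drug. The labels give no age or sex and name no array of skin treated with vehicle alone, so the drug, the handling and the passing of time cannot be told apart within a genotype. Whether each array stands for its own animal is not stated either, so p-values measure only how these samples spread, which may partly be technical. Esr1, whose sequence the fusion carries in part, lay between 80.7 and 408 on the 8 transgenic arrays and between 13.4 and 50.0 on the 8 wild-type arrays, which fits the labels. The number of arrays, 2 or 3 in a group, limits the precision of every value.

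Interferons are secreted proteins by which cells warn each other of infection. Type I interferons bind the receptor made of Ifnar1 and Ifnar2, and through the kinases Jak1 and Tyk2 assemble a transcription factor that includes Irf9 and binds interferon-stimulated response elements. Interferon gamma, made mainly by T cells and natural killer cells, binds Ifngr1 and Ifngr2 and acts on genes through gamma-activated sites. In skin, keratinocytes, resident immune cells, fibroblasts and vessel cells all respond to them. The Ifit proteins bind foreign or unmethylated RNA and block its translation, and their genes lie side by side. Gbp2 is a GTPase of the guanylate-binding family that attacks the vacuoles of intracellular microbes. Irf1 is a transcription factor induced mainly by interferon gamma, Irf7 is the factor that amplifies transcription of type I interferons, and Isg15 is a ubiquitin-like protein that is attached to other proteins.

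The promoters of the 4 genes that fell in transgenic skin after 7 days are shown because the motifs through which interferons act can be read in them. The sequences are those of RefSeq on GRCm38.p6, from 250 bases before to 50 after a start site, on the strand of the gene. Capitals mark matches to the core of the interferon-stimulated response element or to the gamma-activated site (TTCNNNGAA), searched on both strands. The first motif is GAAA, any 2 bases and GAAA again. Gbp2 is at chr3:142620413-142620712 (+), Ifit1 at chr19:34640639-34640938 (+), Ifit3 at chr19:34583279-34583578 (+) and Irf1 at chr11:53769764-53770063 (+).
Gbp2: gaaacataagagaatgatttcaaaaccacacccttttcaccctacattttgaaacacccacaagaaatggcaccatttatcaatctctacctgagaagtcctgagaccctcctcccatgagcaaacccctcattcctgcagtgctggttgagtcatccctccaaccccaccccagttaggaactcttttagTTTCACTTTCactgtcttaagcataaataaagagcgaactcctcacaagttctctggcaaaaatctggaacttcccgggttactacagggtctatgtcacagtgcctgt
Ifit1: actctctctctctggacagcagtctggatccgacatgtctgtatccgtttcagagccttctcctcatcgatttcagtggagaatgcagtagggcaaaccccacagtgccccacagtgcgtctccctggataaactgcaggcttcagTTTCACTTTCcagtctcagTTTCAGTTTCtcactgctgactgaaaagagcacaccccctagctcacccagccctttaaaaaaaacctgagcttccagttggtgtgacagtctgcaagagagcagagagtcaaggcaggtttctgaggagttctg
Ifit3: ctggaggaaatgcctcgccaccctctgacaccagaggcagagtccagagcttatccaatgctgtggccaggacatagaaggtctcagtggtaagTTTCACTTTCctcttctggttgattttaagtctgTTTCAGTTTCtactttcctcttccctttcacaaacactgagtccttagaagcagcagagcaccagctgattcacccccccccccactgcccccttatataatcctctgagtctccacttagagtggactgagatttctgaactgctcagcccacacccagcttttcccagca
Irf1: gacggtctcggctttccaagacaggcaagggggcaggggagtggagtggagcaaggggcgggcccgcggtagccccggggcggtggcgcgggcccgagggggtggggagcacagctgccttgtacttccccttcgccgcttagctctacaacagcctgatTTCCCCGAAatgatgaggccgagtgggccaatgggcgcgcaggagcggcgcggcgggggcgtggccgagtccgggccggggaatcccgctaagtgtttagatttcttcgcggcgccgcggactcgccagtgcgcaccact
Gbp2 had 1 match to the response element, at base -59 from its start site. The match is on the reverse strand and appears as TTTCACTTTC on the strand of the gene. Ifit1 had 2 such matches, at -104 and -85, and Ifit3 had 2, at -156 and -122, in each gene 1 as TTTCACTTTC and 1 as TTTCAGTTTC. Irf1 had no match to the response element and 1 to the gamma-activated site, at -90. The second annotated start of Irf1 had neither motif in its window. The same was true of the only start of Irf7 and of 1 of the 2 starts of Ifit2, whose other window held 1 gamma-activated site match at -241. Isg15 had 3 overlapping matches to the response element. In the whole RefSeq table, 3.44% of 32851 promoters held the response element core and 8.30% held the gamma-activated site motif. A match is a description of the letters and not a measured binding site. Motifs outside these windows, or in variant forms, were not searched, so a window without a match does not show that a gene lacks such sites.

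**Figure D1:**
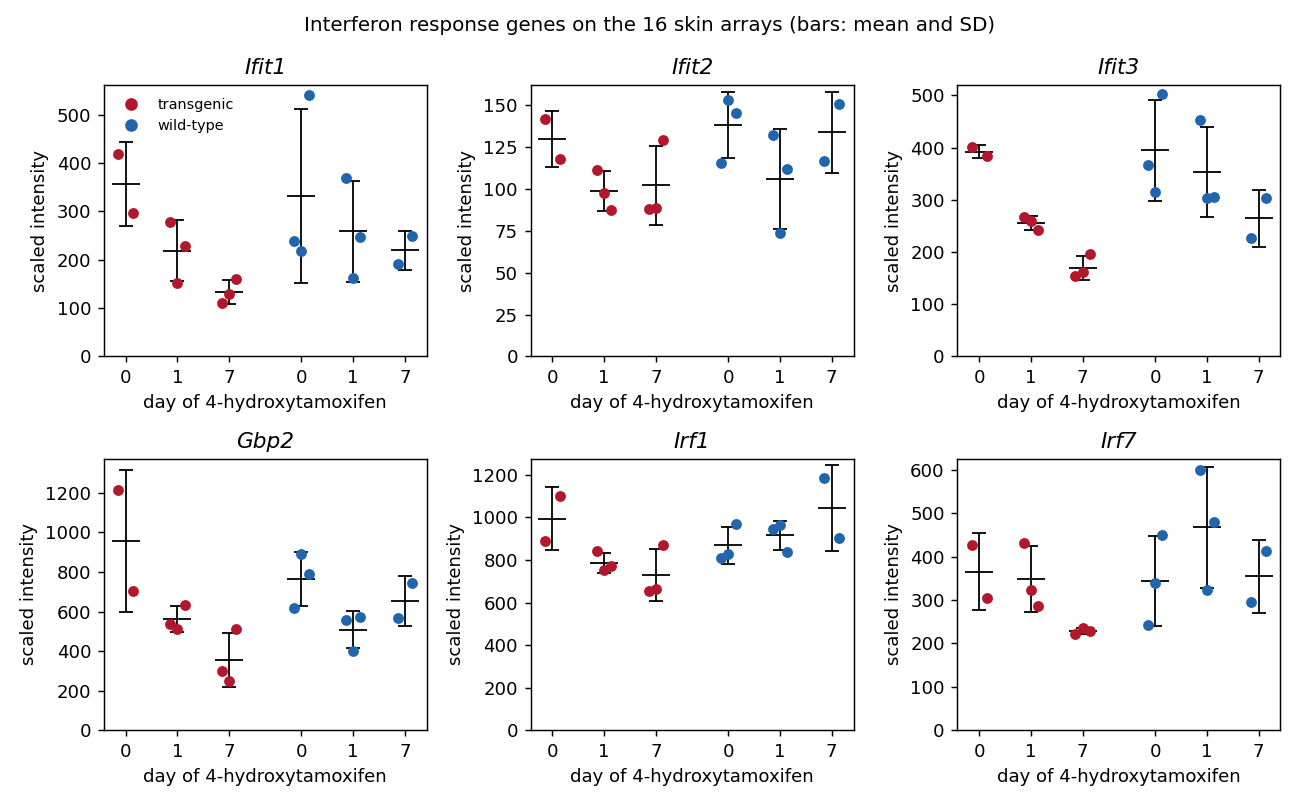
Scaled intensity (linear axis from 0) of the 6 measured interferon response genes on each of 16 arrays, transgenic skin in red left of wild-type skin in blue, by day of 4-hydroxytamoxifen. Points are arrays and the bars are the mean and SD of a group of 2 or 3. Gbp2, Ifit1, Ifit3, Irf1 and Irf7 lie lower on all 3 transgenic day 7 arrays than on both transgenic day 0 arrays and both wild-type day 7 arrays.

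After 7 days of drug, 4 of the 6 measured genes were lower in transgenic skin than before treatment, and 0 were higher. Gbp2 fell 2.57-fold, Ifit1 2.34-fold, Ifit3 2.11-fold and Irf1 1.35-fold, on the scale of the intensity plus 32. Irf7 and Ifit2 did not pass the test. Of all genes tested, 20.1% were lower at an adjusted p under 0.05 in this comparison. The groups did not overlap, with every day 7 array lower, for 5 of the 6 genes, against 29.7% of all genes tested. The median log2 change of the 6 genes was -0.83, beside 0.01 over all genes tested. These are bulk samples, in which fewer cells of a type and less RNA per cell cannot be told apart.

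Gbp2 had intensities of 302, 251 and 512 on the transgenic day 7 arrays, against 1212 and 705 at day 0. All day 7 values lay below both day 0 values, and the day 0 arrays differed much between themselves. The log2 change was -1.36 ± 0.26 (SE, adjusted p = 0.00062, limma). It was -0.99 (adjusted p = 0.023) without transgenic day 0 replicate 1 and -1.74 without replicate 2 of that group. The other Gbp2 probe set, of a kind whose probes may also bind related sequences, had intensities of 255, 191 and 264 at day 7, against 1405 and 469 at day 0. It changed by -1.67 ± 0.31 (adjusted p = 0.000549, limma with every probe set tested), and its groups did not overlap either.

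The Ifit genes are neighbours on chromosome 19 of GRCm38.p6, Ifit2 at 34550550 to 34576534, Ifit3 at 34583119 to 34588982 and Ifit1 at 34640889 to 34650009. Ifit1 had intensities of 112, 129 and 160 on the transgenic day 7 arrays, against 418 and 296 at day 0. It was lower on every day 7 array, by a log2 change of -1.23 ± 0.34 (adjusted p = 0.00891), and leaving out transgenic day 0 replicate 1 ended the call (-0.997, adjusted p = 0.1). Ifit3 had intensities of 153, 161 and 196 at day 7, against 401 and 384 at day 0. Its replicates lay close together and apart from the other day, and the change was -1.08 ± 0.19 (adjusted p = 0.000287). Mouse Ifit3 has a near-identical neighbour, Ifit3b, and whether the probes also read it was not tested. Ifit2 had 88.3, 88.9 and 129 at day 7, against 142 and 118 at day 0. The groups overlapped, and the change of -0.28 (95% interval -0.70 to 0.14, adjusted p = 0.292) did not pass. Ifit2 lay above the 40th percentile of an array on 6 of the 16 arrays, Ifit1 on 15 and the other genes on all 16.

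Irf1 had intensities of 653, 664 and 871 on the transgenic day 7 arrays, against 890 and 1099 at day 0. The gap between the highest day 7 and the lowest day 0 value was small, and the change was -0.44 ± 0.14 (adjusted p = 0.0248). The call did not hold when transgenic day 0 replicate 2 (-0.29, adjusted p = 0.25), or replicate 1 or 2 of transgenic day 7 (-0.37 and -0.38, adjusted p of 0.087 and 0.0833), was left out, without scaling of the arrays (-0.58, adjusted p = 0.0657), or with only the groups compared (adjusted p = 0.0608). Irf7 had 221, 237 and 228 at day 7, against 428 and 304 at day 0. These groups did not overlap, but the change of -0.59 (95% interval -1.12 to -0.06) had an adjusted p of 0.0728. The call appeared after quantile normalization (-0.67, adjusted p = 0.0424), with only the groups compared (adjusted p = 0.0205) or when the second wild-type day 1 array was left out (adjusted p = 0.0471).

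After 1 day of drug no call was made in transgenic skin. Against transgenic day 0, all 6 log2 changes at transgenic day 1 were below 0, with a median of -0.44, but 0 of the 6 genes passed, and Ifit3 came nearest, at a log2 change of -0.56 (adjusted p = 0.0638, limma). Of all genes tested, 10.8% passed in either direction, and at an unadjusted p under 0.05 the counts were 3 of the 6 genes and 2411 of all 9058. The groups did not overlap, with every transgenic day 1 array lower, for 5 of the 6 genes, against 22.4% of all genes. Gbp2 counts there by its brighter probe set only. Its other probe set had 740, 609 and 557 at transgenic day 1, against 1405 and 469 at day 0. Those groups overlapped, and the change was -0.36 ± 0.31 (adjusted p = 0.501, limma with every probe set tested). Ifit3 had intensities of 267, 259 and 242 at transgenic day 1, Gbp2 had 538, 512 and 634, and Ifit1 had 277, 151 and 228. For Ifit3 these values lie between those of days 0 and 7 without touching either. Irf1 had 840, 752 and 771 at transgenic day 1 and overlapped only the day 7 values. Irf7 had 433, 324 and 287 and Ifit2 had 111, 97.8 and 87.3, so Irf7 at day 1 covered the range of day 0, and Ifit2 that of the dimmer day 7 arrays.

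Between day 7 and day 1 of transgenic skin, Gbp2 was lower with a log2 change of -0.67 ± 0.23 (adjusted p = 0.0285) and Ifit3 with one of -0.51 ± 0.17 (adjusted p = 0.0203), 2 of the 6 genes, where 22.7% of all genes tested were lower. The Gbp2 groups touched, with 512 on the highest day 7 array and on the lowest day 1 array. Its other probe set changed by -1.32 ± 0.27 (adjusted p = 0.00134). Both calls depended on single arrays, and 0 genes were called when the first array of transgenic day 1, or the first or second of transgenic day 7, was left out. Leaving out the third array of transgenic day 1 kept the call of Ifit3 alone, and leaving out the second that of Gbp2 alone. Irf7 changed by -0.53 (adjusted p = 0.0672), Ifit1 by -0.58 (adjusted p = 0.131), Irf1 by -0.12 and Ifit2 by 0.03. With only the groups compared, 4 of the genes passed.

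Wild-type skin showed no call for any of the 6 genes at any day. Gbp2 had intensities of 620, 888 and 790 at day 0, 555, 402 and 570 at day 1, and 566 and 744 at day 7. Ifit1 had 239, 219 and 540 at day 0, 370, 161 and 247 at day 1, and 190 and 248 at day 7. Ifit3 had 367, 315 and 502 at day 0, 453, 303 and 305 at day 1, and 226 and 303 at day 7. All 3 genes had a wide spread within wild-type groups, and the third day 0 array was the highest of its group for both Ifit1 and Ifit3. Ifit3 was lower on both day 7 arrays than on every day 0 array, by -0.51 on the log2 scale (95% interval -0.91 to -0.12, adjusted p = 0.0852). Ifit2 had 116, 153 and 145 at day 0, 132, 73.4 and 112 at day 1, and 117 and 151 at day 7. Irf1 had 811, 829 and 969 at day 0, 947, 964 and 837 at day 1, and 1186 and 901 at day 7. Irf7 had 243, 340 and 450 at day 0, 600, 322 and 481 at day 1, and 296 and 414 at day 7. The groups of Ifit2, Irf1 and Irf7 overlapped between all 3 days.

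Among all genes tested in wild-type skin, 22.3% passed in either direction at day 1 against day 0, 11.4% at day 7 against day 0 and 3.15% at day 7 against day 1, beside 0 of the 6 genes in each. At an unadjusted p under 0.05 the counts were 1 of 6 genes (3282 of all genes) at day 1 against day 0, 1 (2406) at day 7 against day 0 and 0 (1700) at day 7 against day 1. The other Gbp2 probe set was lower at day 1, with 417, 433 and 430 against 670, 1027 and 881 at day 0, groups that did not overlap. Its log2 change was -0.94 ± 0.27 (adjusted p = 0.0242), beside -0.56 (adjusted p = 0.0926) for the brighter one. The groups of the brighter probe set did not overlap either, at 402 to 570 on day 1 and 620 to 888 on day 0. Both probe sets were thus lower at day 1 in wild-type skin, and only the call depended on the probe set. The change to day 1 differed between genotypes by -0.14 for the brighter probe set and 0.58 for the other, and neither passed.

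Transgenic and wild-type skin were then compared at each day. At day 0, 0 of the 6 genes differed (median log2 difference 0.14), as did 0.011% of all genes, and at an unadjusted p under 0.05 the counts were 0 and 415. At day 1, again 0 of the 6 differed (median -0.20), beside 1.3% of all genes, with 1 and 1819 at an unadjusted p under 0.05. At day 7, 3 of the 6 were lower in transgenic skin and 0 higher, where 21.1% of all genes tested were lower. The groups did not overlap for 5 of the 6 genes, against 31.5% of all genes. The comparison shares its transgenic day 7 arrays with that against day 0, so these comparisons are not independent.

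Gbp2 at day 7 had intensities of 302, 251 and 512 in transgenic skin, against 566 and 744 in wild-type skin. The groups lay apart, by a log2 difference of -0.87 ± 0.26 (adjusted p = 0.0135), and the call ended when wild-type day 7 replicate 2 (-0.69, adjusted p = 0.135) or transgenic day 7 replicate 2 (-0.68, adjusted p = 0.0616) was left out. The other probe set differed by -1.10 ± 0.31 (adjusted p = 0.0107), with 255, 191 and 264 in transgenic and 453 and 641 in wild-type skin. Irf1 had 653, 664 and 871 in transgenic and 1186 and 901 in wild-type skin, a difference of -0.50 ± 0.14 (adjusted p = 0.0116). Without wild-type day 7 replicate 1 it was -0.31 (adjusted p = 0.198), and without scaling of the arrays -0.45 (adjusted p = 0.187), so the call for Irf1 rested on that array and on the scaling.

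Ifit3 had 153, 161 and 196 in transgenic and 226 and 303 in wild-type skin at day 7, a difference of -0.55 ± 0.19 (adjusted p = 0.028). It missed the threshold when wild-type day 7 replicate 2 (-0.36, adjusted p = 0.261), or replicate 1 or 2 of transgenic day 7 (adjusted p of 0.0831 and 0.072), was left out, and without scaling (adjusted p = 0.156). Ifit1 differed by -0.60 (95% interval -1.32 to 0.11, adjusted p = 0.166) and Irf7 by -0.55 (95% interval -1.08 to -0.02, adjusted p = 0.0895), each with groups that did not overlap. Both passed with only the groups compared (adjusted p = 0.0316 and 0.0233). Ifit2 differed by -0.31 (adjusted p = 0.227), and its groups overlapped.

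**Figure D2:**
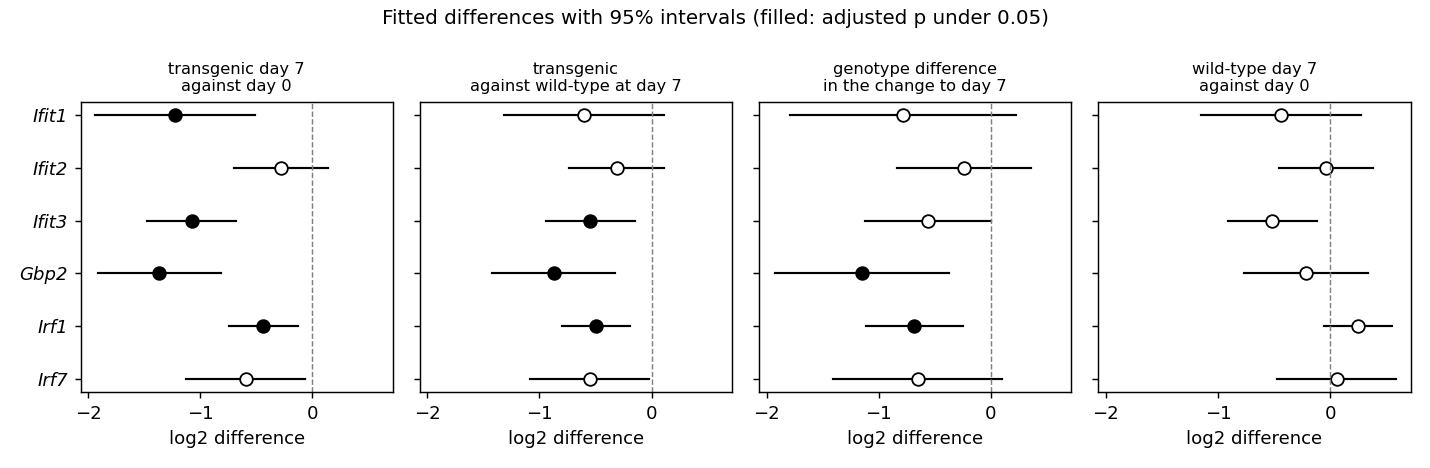
Fitted log2 differences (points) with 95% intervals (lines) of the 6 genes in 4 comparisons. Filled points have an adjusted p under 0.05, 4, 3, 2 and 0 genes from left to right, and the dashed line marks 0.

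Whether the change to day 7 differed between the genotypes was tested directly, by subtracting the wild-type from the transgenic change. Gbp2 differed by -1.15 ± 0.37 on the log2 scale (adjusted p = 0.0325), with changes of -1.36 in transgenic skin and -0.21 in wild-type skin. Irf1 differed by -0.68 ± 0.20 (adjusted p = 0.0238), with changes of -0.44 in transgenic skin and 0.25 in wild-type skin. The 2 of 6 genes stand beside 11.7% of all genes tested that were lower by this difference. The differences of Ifit1 (-0.78, 95% interval -1.79 to 0.22), Irf7 (-0.65, -1.40 to 0.10), Ifit3 (-0.56, -1.12 to -0.0020) and Ifit2 (-0.24, -0.84 to 0.35) did not pass, so for the Ifit genes a change particular to transgenic skin was not shown. The other Gbp2 probe set differed by -1.05 ± 0.43 (adjusted p = 0.1) and did not pass. For the change to day 1 the difference passed for 0 of the 6 genes, at a median of -0.38, and for 0.287% of all genes; at an unadjusted p under 0.05 the counts were 0 and 1382.

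The calls on this difference depended on single arrays. Gbp2 missed the threshold when transgenic day 0 replicate 1 was left out (-0.77, adjusted p = 0.178), and likewise replicate 1 or 2 of transgenic day 7 (adjusted p of 0.0691 and 0.0771), the first wild-type day 0 array (0.0702) or the second wild-type day 7 array (0.132). It also missed it with only the groups compared (adjusted p = 0.0571). Irf1 missed it when transgenic day 0 replicate 2 was left out (-0.53, adjusted p = 0.114), and likewise replicate 1 or 2 of transgenic day 7 (adjusted p of 0.0576 and 0.0561) or the first wild-type day 7 array (-0.49, adjusted p = 0.139), and without scaling (adjusted p = 0.142).

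**Figure D3:**
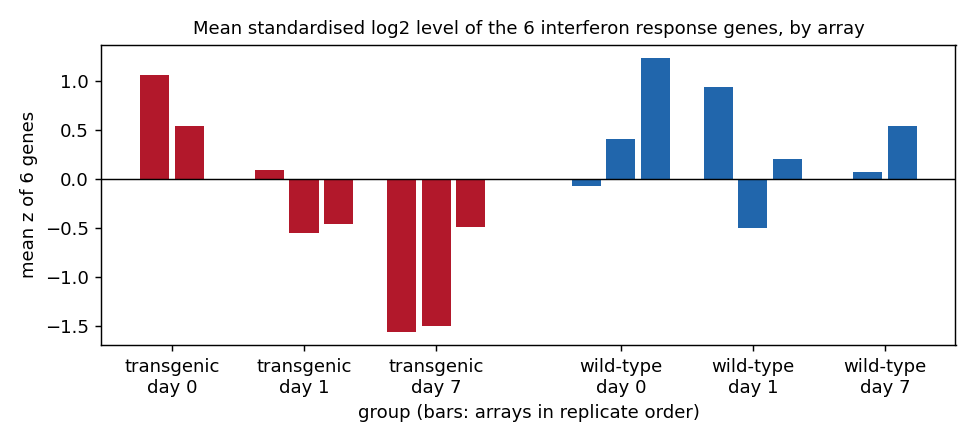
Mean over the 6 genes of their log2 levels, each standardised to mean 0 and SD 1 over the 16 arrays, for every array (bars, transgenic red and wild-type blue, in replicate order within a group). Transgenic day 7 arrays are at -1.56, -1.50 and -0.49, below both transgenic day 0 arrays at 1.07 and 0.55.

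The levels of the 6 genes were compared across arrays. Over the 16 arrays the Pearson correlation of a pair ranged from 0.37 to 0.89 over 15 pairs, with a median of 0.55, and it describes levels that share the group differences and the scaling of each array. With group means removed it ranged from -0.07 to 0.82, with a median of 0.49. Irf1 stood apart in that view, at -0.07 to 0.26 with the other genes. Ifit1 and Ifit3 were the most alike of the pairs in both views. In the mean of the 6 standardised genes, the third transgenic day 7 array stood nearer to the transgenic day 1 arrays, at -0.55 to 0.10, than to the other 2 arrays of its group. Among wild-type arrays, the third of day 0 (1.23) and the first of day 1 (0.94) were the highest.

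The genes whose profile over the 16 arrays was most like the mean of the 6 were Trim34a (r = 0.93), which encodes a tripartite-motif protein, the Isg15-removing protease gene Usp18 (0.91), Parp9 (0.91) and the immunity-related GTPase gene Irgm2 (0.88), followed by Nova1 (0.88), Pfkfb3 (0.88), Ebf2 (0.87) and Enpp3 (0.87). For single genes, the nearest were Efemp1 and Ackr1 for Gbp2 (0.88 each), Usp18 and Ces1f for Ifit1 (0.88 and 0.86), Rsad2 and Cxcl9 for Ifit2 (0.79 and 0.76), Slc7a10 and Cav2 for Ifit3 (0.94 each), Slc37a1 and Pllp for Irf1 (0.84 and 0.83), and Oasl2 and Rtp4 for Irf7 (0.90 and 0.83). Because Trim34a was picked for its likeness to the 6 genes over these same arrays, its changes are not independent of theirs. It changed by -1.17 in transgenic skin at day 7 against day 0 (adjusted p = 3.4e-05, limma) and by 0.13 in wild-type skin (adjusted p = 0.65). Slc7a10 and Cav2 are genes of fat cells among other cells, and the summed intensity of 6 fat cell markers, chosen after the values were seen, was 3112 to 4339 on transgenic day 7 arrays, 8679 to 12641 on transgenic day 0 arrays, 5889 to 9677 on wild-type day 7 arrays and 10705 to 12873 on wild-type day 0 arrays. The markers were Adipoq, Cidec, Lep, Retn, Pparg and Lipe, and Adipoq was the brightest of them in every group. The day 7 sums lay below the day 0 sums in both genotypes. At day 1 the sums were 6768 to 10678 in transgenic and 8025 to 15408 in wild-type skin, and overlapped those of day 0 in both. The part of fat cells in the Ifit3 level was not tested.

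The rest of the interferon pathway was read in order, from the ligands to the targets. Of 10 interferon ligand genes, 6 had a probe set of their own, Ifng, Ifnb1, Ifna1, Ifna2, Ifna4 and Ifna5, and all 6 lay below the filter, at an intensity of 80.2 or less on every array. No change of a ligand could be read. Of 10 receptor and signalling genes tested, 3 were lower in transgenic skin at day 7 than at day 0, and 0 higher, at a median of -0.27, a count near the share of all genes (20.1% lower). They were Irf9 (-0.63), the DNA-binding subunit of the type I factor, the kinase gene Jak1 (-0.57) and the interferon gamma receptor gene Ifngr1 (-0.51). Irf9 had 254 to 293 at day 7 and 397 to 487 at day 0, and Jak1 had 1295 to 1491 and 2077 to 2082, so neither gene's groups overlapped. Against wild-type skin at day 7, 5 of the 10 were lower, among them Jak1 (-0.72), Irf9 (-0.61), Il10rb (-0.85) and Ifnar2 (-0.53), and 3 by the difference between genotypes, where 21.1% and 11.7% of all genes were lower. In wild-type skin at day 7, 0 of the 10 passed.

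Sensors that start interferon production and the brakes on the response were read beside the same 20.1% of all genes lower. Of 12 genes of nucleic acid sensing, 3 were lower in transgenic skin at day 7 than at day 0, a share near that of all genes: Ifih1 (-1.16), which encodes the double-stranded RNA sensor MDA5, the kinase gene Ikbke (-1.38) and Tlr3 (-0.57). Ifih1 had 375 to 419 at day 7 and 779 to 1084 at day 0, beside 717 to 830 in wild-type skin at day 7. Of 6 other interferon regulatory factor genes, 3 were lower: Irf4 (-2.03), which acts mainly in lymphocytes, myeloid cells and fat cells, Irf9 and Irf2 (-0.56). Against wild-type skin at day 7, 7 of the 12 sensing genes and 5 of these 6 factor genes were lower, where 21.1% of all genes were. By the difference between genotypes, 3 sensing genes and 4 factor genes were lower, where 11.7% of all genes were. Irf5 was higher at day 1 in transgenic skin (0.67) and in wild-type skin (0.77), and higher at day 7 in wild-type skin (0.64). Of 7 brakes, 4 were lower in transgenic skin at day 7 than at day 0, Trim21 (-0.67), Socs3 (-0.96), Usp18 (-0.99) and Irf2. The phosphatase gene Ptpn1 was higher (0.37), where 1683 of all 9058 genes were higher. Irf2, Irf9, Usp18 and Ifih1 each stand in more than 1 of the lists, so the counts of the lists are not independent.

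**Figure D4:**
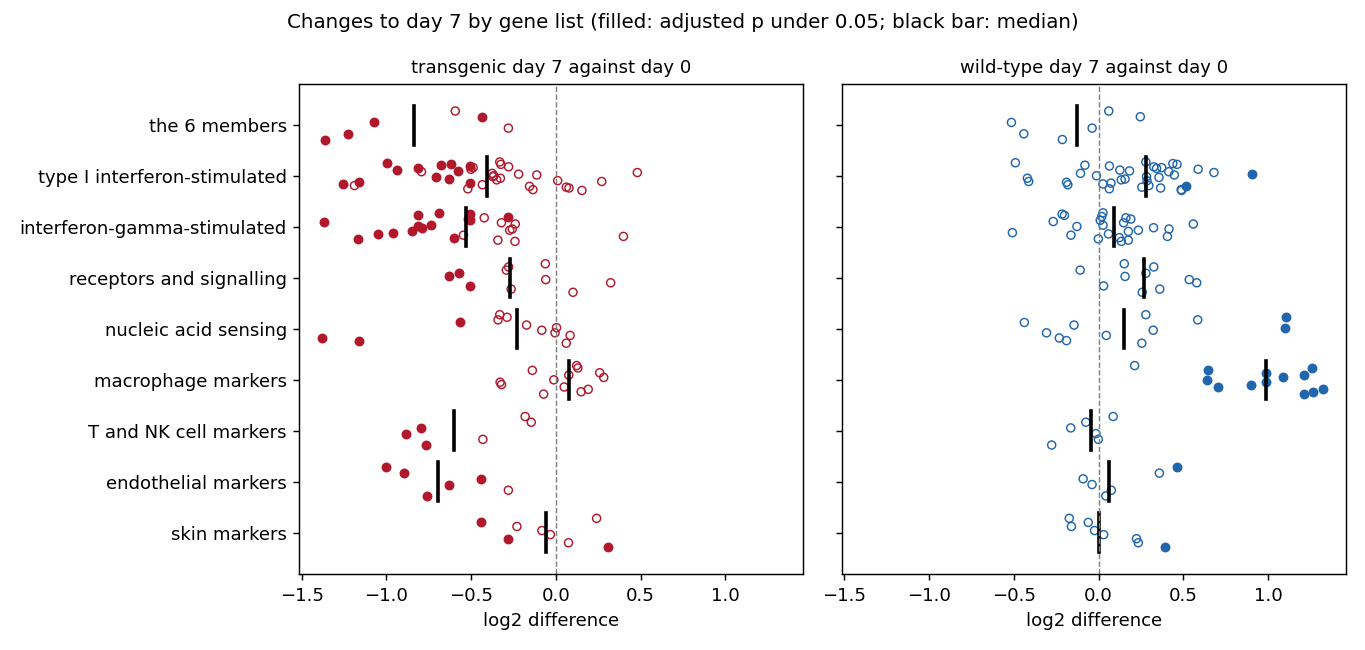
Log2 changes of single genes (points) from day 0 to day 7 in transgenic skin, left, and wild-type skin, right, by gene list. Filled points have an adjusted p under 0.05 and black bars are medians; a gene in several lists is drawn in each, and medians of the 6 genes are -0.83 and -0.13.

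Of 36 type I interferon-stimulated genes tested, other than the 6, 12 were lower in transgenic skin at day 7 than at day 0 and 0 were higher. The median was -0.40, with 30 of 36 below 0. Of all genes tested, 20.1% were lower in this comparison, 21.1% against wild-type skin at day 7 and 11.7% by the difference between genotypes. Ifih1, Irf9, the ubiquitin ligase gene Trim25 (-0.68) and Parp9 (-0.94) had the smallest p-values. Without transgenic day 0 replicate 1, 6 of the 36 were called. Against wild-type skin at day 7, 22 were lower and 0 higher, at a median of -0.61, among them Uba7 (-1.03), the enzyme that activates Isg15, with intensities of 170 to 210 in transgenic and 396 to 420 in wild-type skin. Without wild-type day 7 replicate 2 the count was 14. By the difference between genotypes 12 were lower, and the count was 2 when transgenic day 0 replicate 1 was left out and 3 when the second wild-type day 7 array was. In wild-type skin at day 7, Eif2ak2 (0.52), which encodes the RNA-activated kinase PKR, and Oas2 (0.90) were higher, 2 of 36 where 5.5% of all genes were higher, with a median of 0.28 over the list and 28 of 36 above 0. At day 1, 6 were higher and 1 lower in wild-type skin, where 10.1% of all genes were higher and 12.3% lower. Oasl1 (1.31), Eif2ak2 (0.69), Trim30a (0.77) and Ifitm2 (0.33) led them, and Oasl1 (1.07) and Ifitm2 (0.33) were the 2 higher in transgenic skin, where 6.65% of all genes were.

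Of 24 interferon gamma-stimulated genes tested, other than the 6, 15 were lower in transgenic skin at day 7 than at day 0 and 0 higher. The median was -0.53. Over all genes tested, 20.1% were lower in this comparison, 21.1% against wild-type skin at day 7 and 11.7% by the difference between genotypes. Tap1 (-0.81) and Tapbp (-0.69), which load peptides on class I molecules, and the immunity-related GTPase genes Irgm2 (-1.37) and Igtp (-0.81) had the smallest p-values. Tap1 had 601 to 828 at day 7 and 1259 to 1279 at day 0, and Irgm2 had 135 to 234 and 357 to 666, so the groups lay apart for both. Without transgenic day 0 replicate 1 the count was 7. Against wild-type skin at day 7, 17 were lower, among them Gbp7 (-1.09), a relative of Gbp2, and Irf8 (-0.84), at a median of -0.62, and the count was 9 without wild-type day 7 replicate 2 and 10 without scaling. By the difference between genotypes 10 were lower, but 2 when transgenic day 0 replicate 1 or the second wild-type day 7 array was left out, and 16 when the third transgenic day 7 array was. In wild-type skin at day 7, 0 of 24 passed, at a median of 0.09. At day 1 of transgenic skin Gbp6 (-0.75) and Tap1 (-0.39) were lower and Ifi30 (0.57) was higher, where 10.8% of all genes passed in either direction.

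Lists of markers of other cell types differed in direction. In transgenic skin at day 7 against day 0, where 20.1% of all genes were lower, the T cell and vessel lists held lower genes. Of 6 T and natural killer cell markers tested (8 of the 14 listed were dim or had no probe set of their own), 3 were lower, the T cell receptor subunits Cd3e (-0.88), Cd3g (-0.80) and Cd247 (-0.77). The summed intensity of the 6 tested markers was 692 to 858 at day 7 and 1122 to 1234 at day 0, beside 995 to 1088 in wild-type skin at day 7. Of 6 endothelial markers, 5 were lower in that comparison, among them Tek (-1.0) and Pecam1 (-0.90), with sums of 1065 to 1290 at day 7 and 1927 to 1931 at day 0, beside 1980 to 2106 in wild-type skin at day 7. Of 7 dendritic and Langerhans cell markers, 1 was higher and 1 lower (median -0.11), of 5 mast cell markers 1 was higher and 2 lower (median -0.30), and of 3 neutrophil markers 0 passed (median 0.18).

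Of 13 macrophage and monocyte markers, 0 passed in transgenic skin at day 7 against day 0 (median 0.08). At day 1 against day 0, 10 were higher in transgenic skin, where 6.65% of all genes were higher. In wild-type skin 11 were higher at day 1, where 10.1% of all genes were, and 12 at day 7, where 5.5% were. Their sums were 14370 to 24242 on transgenic day 7, 15612 to 17227 on transgenic day 0, 33046 to 33642 on wild-type day 7 and 16429 to 18478 on wild-type day 0 arrays. The sums on transgenic day 7 and day 0 arrays overlapped, while 12 of 13 markers were lower in transgenic than in wild-type skin at day 7. In that comparison 21.1% of all genes were lower. Of 5 B cell markers, 4 lay below the filter and 1 had no probe set of its own. Hair follicle growth markers were higher in transgenic skin at day 7, with sums of 27688 to 38250 against 317 to 421 at day 0. The skin markers summed to 65125 to 71854 on transgenic day 7 and 69681 to 77089 on transgenic day 0 arrays. In wild-type skin they summed to 75664 to 84572 at day 7 and 73518 to 77537 at day 0. Between genotypes at day 7, 3 of 8 skin markers were lower and 1 higher in transgenic skin. The part of these cell populations in the levels of the interferon response genes was not tested.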

How the data were processed

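Labelled cRNA made from whole-skin RNA was put on Affymetrix 430 A arrays, per the labels. The values the authors deposited are probe-set intensity on a linear scale. How probes were summarised or scaled is not given in the sources at hand. The trimmed mean of an array (2% off each end, control probe sets left out) was between 358 and 546, and every array was scaled to a common one by a factor of 0.825 to 1.26. Tests used log2 of the scaled intensity plus 32, which understates changes of dim genes.

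Kept were 15058 probe sets above the array's 40th percentile on at least 2 arrays. Symbols came from the platform annotation, and 0 changed through the RefSeq names of GRCm38.p6. There was 1 symbol for 20380 probe sets. The brightest probe set with 1 symbol stood for a gene, which left 9058 genes. Gbp2's other probe set was fitted with every probe set tested.

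limma 3.58.1 (R 4.3.3) fitted the means of the 6 groups, with a variance trend and 10 residual degrees of freedom, in 11 comparisons. Tests were two-sided, with Benjamini-Hochberg adjustment over all genes of a comparison and a threshold of 0.05. The ± values are standard errors of the fit, and intervals are 95% intervals for one gene. The fit was tested on simulated data. The alternatives were other scaling, filters, added values, probe-set rules, array weights, no variance trend, only the groups compared, a replicate block and each array left out.

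The 7 genes, the gene lists and the tests were chosen with earlier results of these data known. Named were the 7 genes, up to 4 genes of each list with the smallest p past the threshold in a comparison (or the 2 brightest where 0 passed), and the genes most like the members over the 16 arrays. The fat cell markers were chosen after their values were seen. Python 3.11.15 and matplotlib 3.10.9 drew the figures.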

Additional observations from a re-analysis of the deposited data

Results flagged for a closer look

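The change to day 7 differed between transgenic and wild-type skin, by limma's test of the difference itself, for 2 of the 6 interferon response genes. By the same difference, 11.7% of all genes tested were lower. For Gbp2 the difference was -1.15 on the log2 scale (adjusted p = 0.0325), with 3 of 3 transgenic day 7 arrays below both transgenic day 0 arrays, while the wild-type day 7 arrays lay within or below the range of wild-type day 0. For Irf1 the difference was -0.68 (adjusted p = 0.0238), with 3 of 3 transgenic day 7 arrays below both transgenic day 0 arrays, while 1 wild-type day 7 array lay above and 1 within the range of wild-type day 0. The other Gbp2 probe set did not pass (-1.05, adjusted p = 0.1, limma with every probe set tested). Both calls ended when any 1 of several single arrays was left out. No group had more than 3 arrays, and single arrays were not tested as outliers.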

How the results depend on the processing

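Over the alternatives, the count of the 6 genes lower in transgenic skin at day 7 against day 0 was 3 without further scaling, 5 after quantile normalization and 3 to 5 with an array left out, beside 4. For transgenic day 7 against day 1, beside 2, it was 1 without further scaling, 4 with only the groups compared and 0 to 3 with an array left out. For transgenic against wild-type skin at day 7, beside 3, it was 1, 5 and 1 to 3 under the same alternatives, and for the difference of the change to day 7 between genotypes, beside 2, it was 1, 1 and 0 to 3. For transgenic day 1 against day 0, beside 0, it was 1 with only the groups compared, 1 with a replicate block and 0 to 1 with an array left out. For wild-type day 1 against day 0, beside 0, it was 1 with the mean of a gene's probe sets, 1 with only the groups compared, 1 with weighted arrays and 0 to 1 with an array left out. The 5 other comparisons gave 0 throughout. A 60th-percentile filter removed Ifit2. Scaling moved the median of all genes for transgenic day 7 against day 0 to 0.01, against -0.13 without it, with 1683 genes higher and 1820 lower, against 521 and 1255.

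The counts of lower genes in the 2 wider lists were put through the same alternatives after the data were seen. With an array left out, the type I list gave 6 to 16 (beside 12) for transgenic day 7 against day 0, 14 to 24 (beside 22) against wild-type skin and 2 to 18 (beside 12) for the difference. The interferon gamma list gave 7 to 19 (beside 15), 9 to 18 (beside 17) and 2 to 16 (beside 10). Without further scaling it gave 10 against wild-type skin and 3 for the difference, which was 4 without the filter.

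Of 1837 alternative values of single genes, 1737 kept their direction and side of the threshold, 34 lost the threshold, 21 gained it and 45 changed sign. Those 45, in 18 gene and comparison pairs, were at most 0.24 in size, with adjusted p-values of 0.467 or more. Ifit2 became -0.15 without further scaling and -0.025 with a replicate block for the difference in the change to day 1, 0.063 without further scaling at day 0, 0.084 after quantile normalization and 0.078 with weighted arrays between genotypes at day 1. It became -0.17 and -0.076 under these last alternatives for transgenic day 7 against day 1, and 8.67e-05 with a replicate block for wild-type day 7 against day 0. Gbp2 became 0.22 with the mean of its probe sets for the difference in the change to day 1, and Ifit3 -0.0047 after quantile normalization and -0.000309 with weighted arrays between genotypes at day 0. With an array left out, signs changed in these ranges. Genotype difference in the change to day 1 gave -0.51 to 0.24 for Gbp2 and -0.17 to 0.15 for Ifit2. Transgenic against wild-type at day 0 gave -0.10 to 0.66 for Gbp2, -0.048 to 0.56 for Ifit1, -0.18 to 0.036 for Ifit2, -0.12 to 0.19 for Ifit3 and -0.13 to 0.33 for Irf7. Transgenic against wild-type at day 1 gave -0.0084 to 0.23 for Gbp2, -0.45 to 0.078 for Ifit1 and -0.24 to 0.082 for Ifit2. Wild-type day 1 against day 0 gave -0.55 to 0.10 for Ifit1 and -0.32 to 0.030 for Ifit3. Wild-type day 7 against day 1 gave -0.42 to 0.10 for Ifit1 and -0.020 to 0.36 for Irf1. Transgenic day 7 against day 1 gave -0.11 to 0.10 for Ifit2. Wild-type day 7 against day 0 gave -0.19 to 0.11 for Ifit2 and -0.16 to 0.28 for Irf7. Transgenic day 1 against day 0 gave -0.29 to 0.16 for Irf7.

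The labels state no pairing of arrays by replicate number. Deviations within a group of 2 or 3 arrays sum to 0, so the correlations below cannot settle whether arrays were paired. Deviations of 36 same-numbered pairs correlated at -0.25 to 0.19 (median 0.03) and those of 70 other pairs at -0.21 to 0.25 (median -0.02). With the replicate block, 4 of the 6 genes were called for transgenic day 7 against day 0, 3 against wild-type skin at day 7 and 2 for the difference between genotypes. The cause of these dependences was not tested.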
